A study of Homo sapiens with 9 samples.

Results

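The comparison described here is that of MC26 cells with the parental MCF10A cells (MCF10A-CT, below CT), and its members are the 6 libraries of these lines out of the 9 of the series, 3 for each line. MCF10A is a non-malignant human mammary epithelial line that lacks p16/CDKN2A and carries extra copies of MYC, and both lines share this background. CT cells were grown without BMP2 or IL6 and are labelled as not transformed, whereas MC26 cells came from unsorted MCF10A cells kept for a long time with recombinant BMP2 and IL6, which were still in their medium, and are labelled as transformed. The rest of the series, M1B26, was made with the same factors from cells sorted for the BMP receptor BMPR1B and grown out in soft agar, carries the same label, enters the fit that all tests share and is set beside MC26 for a few genes. Poly-A RNA was sequenced from 3 separate cultures of each line. Of 60199 gene symbols in the count table, 29997 had a count in at least 1 of the 9 libraries and 15717 passed the filter on low counts and were tested.

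Because MC26 is a single derived line harvested in the presence of the factors, a lasting difference of the line and an acute answer of its genes to BMP2 and IL6 cannot be told apart. RNA was measured in bulk, so that fewer cells of a kind and less RNA per cell also cannot be told apart. Total counts ran from 21425118 to 80076597 per library in CT, the lowest being that of replicate 2, and from 38585395 to 42869494 in MC26. Levels are given below in CPM, the counts relative to the total of their library after TMM scaling, always in the order of replicates 1, 2 and 3, which are only names. Differences are log2 fold changes of MC26 over CT ± SE from edgeR's quasi-likelihood test, fitted over all 9 libraries of the series, with Benjamini-Hochberg adjusted p over all genes tested. A gene is called changed, higher or lower where that p is under 0.05. Where a call is said to be lost, only fits that left out 1 library are listed unless another setting is named. Over all genes 38.7% were called, 18.8% higher and 19.9% lower, and these shares are the background for every gene group below. Of the called genes 48.5% were higher with TMM scaling and 35.8% with plain total counts, which moved the median log2 fold change of all genes from 0.00 to -0.08.

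BMP2 binds receptor kinases at the cell surface that phosphorylate SMAD proteins, which enter the nucleus and switch on ID genes and their own inhibitors, while IL6 acts through the shared chain gp130 on STAT3. The mammary epithelium has an outer basal layer, rich in keratins 5 and 14, the factor p63 and the adhesion complexes that hold it to the basement membrane, and an inner luminal layer, rich in keratins 8 and 18 and in the tight junctions that seal the duct. MCF10A cells in culture carry features of both layers.

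The cells were epithelial by their markers in both lines. All 7 basal markers examined were expressed, and 5 of the 7 were called higher and none lower. Their summed level was 8560 to 10500 CPM in CT and 14000 to 17600 CPM in MC26, and it rests mostly on KRT5 and KRT6A. Of these KRT5 was not called, and KRT6A had a mean of 1949 CPM in CT and 6213 CPM in MC26. The 9 luminal markers summed to 913 to 1050 CPM in CT and 656 to 693 CPM in MC26, with 4 called lower and 1 higher. Of these KRT19, PGR and ELF5 were too low to test. Myoepithelial cells, the contractile form of the basal layer, were not clearly present: MYH11 and CNN1 were at or near 0, and the other 3 of 5 markers, ACTA2, MYLK and OXTR, were called lower, with a summed level of 16.6 to 20.5 CPM in CT and 11.6 to 14.9 CPM in MC26. Of 5 endothelial markers PECAM1 and KDR were called lower and TEK higher. Of 5 neural markers only TUBB3 was called, with 76.3, 62 and 94.7 CPM in CT and 361, 258 and 218 CPM in MC26. Among 6 leukocyte markers CD68 was called higher, and CD14 was not called at 11, 6.9 and 9.35 CPM in CT and 9.72, 12 and 17.8 CPM in MC26. Their sum was 14.9 to 19.9 CPM in CT and 34.4 to 36.7 CPM in MC26, while PTPRC and CD3E were at or near 0 in every library. The fibroblast markers COL1A2, PDGFRA and THY1 were also at or near 0, although the sum of all 7, in which DCN varied the most, spread from 17.1 to 56.7 CPM among the MC26 libraries against 37.4 to 37.8 CPM in CT.

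Across 55 lists of gene families and pathways, 50 had members called in both directions. The share of members called was larger than that of all genes in 46 lists and smaller in 9. A share above that of all genes was thus common among these lists, which were chosen with earlier results known. Some members passed the filter on low counts only through MC26 or M1B26 libraries. Of the 15717 genes tested, 14536 reached the filter level in every CT library, and 2687 of these were higher and 3078 lower. The share of members called higher was at least 2 times that of all genes in 14 lists, led by BMP target genes, S phase genes, the IL1 family, laminins and chemokines. It was at least 2 times that of all genes in the lower direction in 8 lists, led by tight junction proteins, EMT and mesenchymal genes and ATF4 targets. At the other end cytosolic ribosomal proteins had 6.02% of members called and nuclear-encoded subunits of oxidative phosphorylation 15.4%, both under the 38.7% of all genes.

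**Figure D1:**
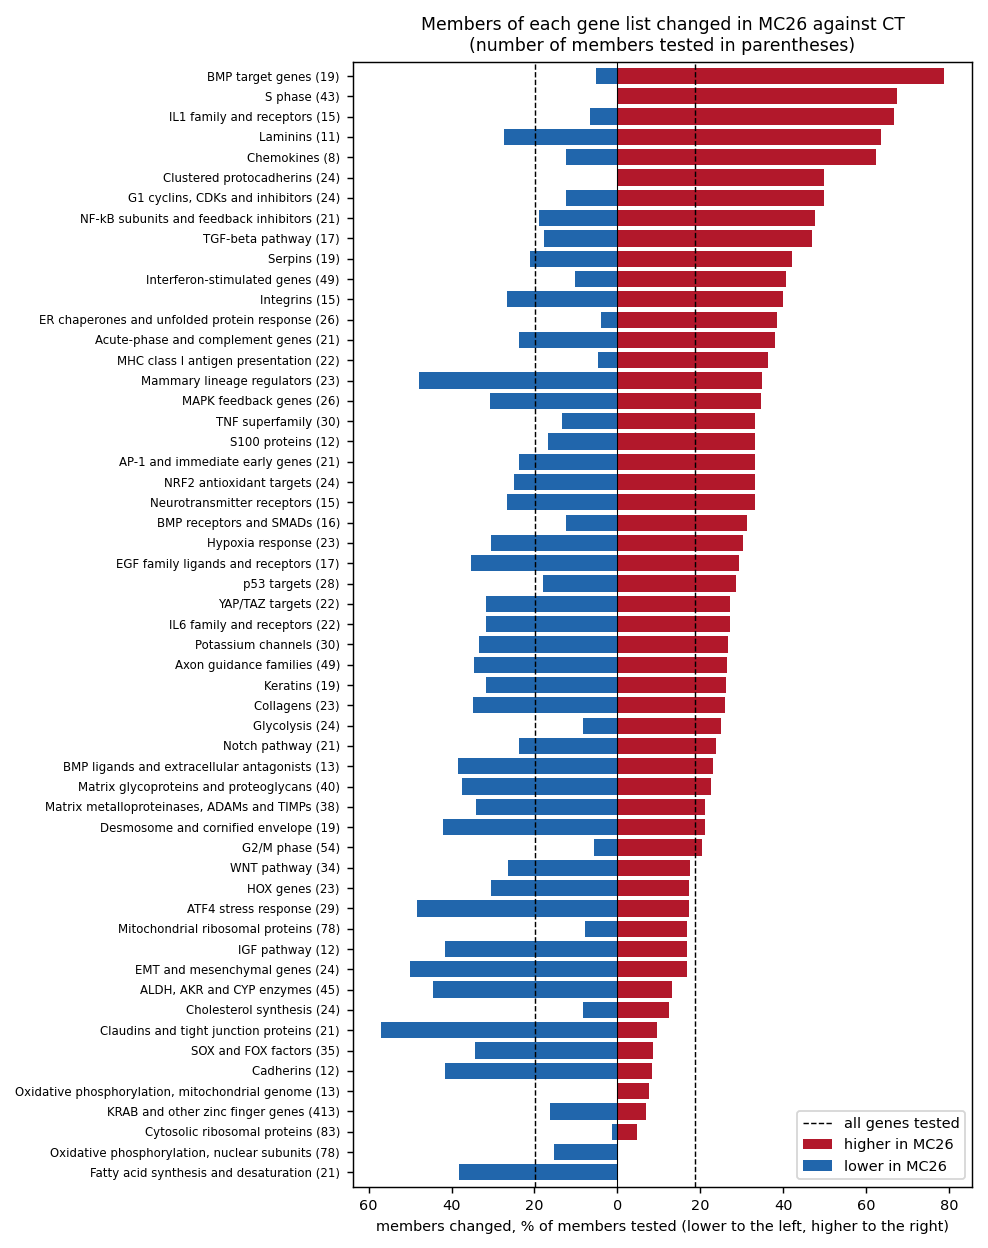
Share of members called higher (red, to the right) and lower (blue, to the left) in MC26 against CT, in percent of the members tested, for 55 gene lists sorted by the higher share; the dashed lines mark the shares of all 15717 genes tested, 18.8% and 19.9%. BMP target genes, S phase genes and the IL1 family stand at the top on the higher side, and tight junction proteins reach furthest on the lower side.

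The BMP target genes moved together. Of 19 tested members 15 (78.9%) were higher and 1 was lower, with a median log2 fold change of 1.52 against 0.00 for all genes. Of the 17 that reached the filter level in every CT library, 14 were higher and 1 was lower. BMP2 was in the medium of MC26 and not of CT, and whether it caused this rise was not tested. DLX2, a homeobox factor, had 1.59, 1.75 and 2.27 CPM in CT and 17.6, 13.2 and 6.94 CPM in MC26 (log2 fold change 2.73 ± 0.34, adjusted p = 0.000128). DLX1, which lies next to it, had 4.74, 4.85 and 6.12 CPM in CT and 18.5, 15.7 and 11.2 CPM in MC26 (log2 fold change 1.52 ± 0.18, adjusted p = 9.29e-05). NOG, the secreted antagonist noggin that binds BMPs outside the cell, had 1.19, 0.612 and 1.15 CPM in CT and 4.1, 3.61 and 2.89 CPM in MC26 (log2 fold change 1.77 ± 0.24, adjusted p = 0.000257). For each of these genes the libraries of the lines did not overlap. That held for 50.3% of all genes tested and for 5872 of the 6081 called genes. Here and below it thus adds little to a call. Within MC26 replicate 1 was the highest and replicate 3 the lowest. The same order held for the receptor-activated SMAD9, with 6.79, 6.55 and 6.3 CPM in CT and 27.5, 22.9 and 16.6 CPM in MC26 (log2 fold change 1.77 ± 0.16, adjusted p = 1.37e-05). It also held for BAMBI, a decoy receptor, with 5.43, 5.2 and 6.22 CPM in CT and 12.3, 10.7 and 7.15 CPM in MC26 (log2 fold change 0.83 ± 0.19, adjusted p = 0.00522), with MC26 replicate 3 close to CT. By contrast, JUNB, an AP-1 subunit, was even among the MC26 libraries at 150.2, 156 and 161 CPM against 51.5, 36.6 and 57.5 CPM in CT (log2 fold change 1.67 ± 0.13, adjusted p = 4.69e-06). The exception in direction was RUNX2, a bone and mammary transcription factor, with 8.5, 9 and 10.2 CPM in CT and 4.43, 5.46 and 3.53 CPM in MC26 (log2 fold change -1.05 ± 0.19, adjusted p = 0.00134). Over the whole list the median difference from the CT mean was 1.78, 1.59 and 1.14 on the log2 scale in MC26 replicates 1, 2 and 3, and the number called higher was 15, 15 and 15 without each of these libraries in turn.

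SMAD6, an inhibitory SMAD, is shown with the stretch before its start because, of the 15 tested BMP target genes found in the RefSeq promoter table, this one alone held the palindrome GTCTAGAC, a known binding sequence of SMAD proteins, within 250 bases before the start. That palindrome, which reads the same on both strands, stood in 48 of 27305 promoters (0.176%). The stretch (chr15:66702116-66702235, plus strand, GRCh38.p14) ends at the last base before the start, and the capitals mark the palindrome.

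SMAD6: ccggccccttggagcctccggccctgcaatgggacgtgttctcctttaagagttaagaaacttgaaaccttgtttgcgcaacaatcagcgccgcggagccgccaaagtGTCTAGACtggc

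The level of SMAD6 was 1.23, 0.961 and 1.56 CPM in CT and 17.2, 13.4 and 8.33 CPM in MC26 (log2 fold change 3.32 ± 0.29, adjusted p = 1.19e-05). Of the 14 members without these letters in the window, 11 were higher too, so their absence says only that the letters are not there.

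Around the pathway itself the members were less uniform. Of 13 BMP ligands and extracellular antagonists 3 were higher and 5 lower (median -0.01), and of 16 receptors and SMADs 5 were higher and 2 lower (median 0.00). FSTL3, a follistatin-like protein that traps activins, had 116, 95 and 128 CPM in CT and 345, 266 and 201 CPM in MC26 (log2 fold change 1.26 ± 0.20, adjusted p = 0.000564). GDF15, a stress-induced member of the family, went the other way with 13.9, 8.39 and 14.3 CPM in CT and 4.28, 5.44 and 7.65 CPM in MC26 (log2 fold change -1.09 ± 0.22, adjusted p = 0.0026). Neither overlapped between the lines, and replicate 3 was the nearest to CT in both. ENG, the co-receptor endoglin, had 87.2, 72 and 96.5 CPM in CT and 134, 130.5 and 125 CPM in MC26 (log2 fold change 0.60 ± 0.09, adjusted p = 0.00056). ACVR2B, a type II receptor, had 7.42, 8.04 and 7.47 CPM in CT and 3.98, 4.71 and 5.69 CPM in MC26 (log2 fold change -0.67 ± 0.14, adjusted p = 0.00425).

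Among the 22 genes of the IL6 family and its receptors 6 were higher and 7 lower, with a median of 0.12. SOCS3, a feedback inhibitor induced through STAT3, had 6.4, 4.8 and 5.88 CPM in CT and 27.9, 27.3 and 35.8 CPM in MC26 (log2 fold change 2.39 ± 0.14, adjusted p = 7.18e-07). IL6 itself had 1.76, 2.05 and 1.62 CPM in CT and 0.0249, 0.157 and 0.0941 CPM in MC26 (log2 fold change -4.26 ± 0.37, adjusted p = 1.04e-05). SOCS3 was thus higher and IL6 lower in every MC26 library, and SOCS3 was highest in replicate 3. LIF, another ligand that signals through gp130, had 9.05, 7.03 and 8.43 CPM in CT and 2.26, 2.72 and 2.26 CPM in MC26 (log2 fold change -1.77 ± 0.16, adjusted p = 1.17e-05). Its receptor LIFR had 17.9, 21.1 and 16.5 CPM in CT and 4.55, 5.39 and 4.31 CPM in MC26 (log2 fold change -1.96 ± 0.17, adjusted p = 1.04e-05). IL6R, the receptor chain that binds IL6, had 33.4, 34.2 and 34.2 CPM in CT and 21.1, 18.9 and 20.7 CPM in MC26 (log2 fold change -0.75 ± 0.10, adjusted p = 0.000264). LIF, LIFR and IL6R were lower in every MC26 library than in any CT library. SOCS2, another feedback inhibitor, had 19.6, 19.4 and 19.6 CPM in CT and 33.5, 26.1 and 21.5 CPM in MC26 (log2 fold change 0.47 ± 0.13, adjusted p = 0.0171). CLCF1, a ligand of the same family, had 4.72, 4.02 and 5.37 CPM in CT and 13, 9.57 and 6.42 CPM in MC26 (log2 fold change 1.02 ± 0.22, adjusted p = 0.00401). SOCS2 and CLCF1 were highest in MC26 replicate 1 and lowest in replicate 3. For SOCS2 the call was lost without MC26 replicate 1 (adjusted p = 0.0534).

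Of 15 tested members of the IL1 family 10 (66.7%) were higher and 1 was lower, with a median of 0.49. Of the 13 that reached the filter level in every CT library, 8 were higher and 1 was lower. IL1A, an alarmin of keratinocytes and other epithelia, had 30.5, 35.4 and 27.5 CPM in CT and 163, 156 and 109.5 CPM in MC26 (log2 fold change 2.21 ± 0.15, adjusted p = 2.11e-06). IL1B, the secreted agonist, had 15.5, 14.3 and 13.7 CPM in CT and 94.7, 115 and 75.2 CPM in MC26 (log2 fold change 2.71 ± 0.18, adjusted p = 1.54e-06). Of the receptor chains, IL1RAP, shared by several receptors of the family, had 25.3, 28.9 and 24.2 CPM in CT and 57.4, 62.1 and 64.2 CPM in MC26 (log2 fold change 1.24 ± 0.09, adjusted p = 3.27e-06). These 3 genes did not overlap between the lines, and their spread within MC26 was small beside the change. IL18R1, a receptor chain for IL18, had 2, 2.01 and 2.02 CPM in CT and 5.5, 5.6 and 5.69 CPM in MC26 (log2 fold change 1.47 ± 0.13, adjusted p = 9.25e-06). Within each line IL18R1 was even. IRAK2, a kinase below these receptors, and CASP1, the protease that matures IL1B, rose by less, with log2 fold changes of 0.70 ± 0.18 and 0.49 ± 0.09 (adjusted p = 0.0102 and 0.00161). IL1RL1, the receptor of IL33, had 0.186, 0.393 and 0.22 CPM in CT and 1.07, 4.29 and 15.1 CPM in MC26 (log2 fold change 4.85 ± 0.96, adjusted p = 0.00249), a wide spread among the MC26 libraries. The agonist IL18 did not pass the test, with 94, 102 and 85.9 CPM in CT and 90.2, 86.5 and 87.3 CPM in MC26 (adjusted p = 0.366). IL1RN, the secreted IL1 receptor antagonist, was the member that fell, with 0.557, 0.306 and 0.964 CPM in CT and 0.249, 0.235 and 0.353 CPM in MC26 (log2 fold change -1.22 ± 0.41, adjusted p = 0.0353), and the call was lost without CT replicate 1 or 3, MC26 replicate 1 or 2 or M1B26 replicate 1 (adjusted p from 0.0523 to 0.215).

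Chemokines that attract neutrophils and lymphocytes were higher in 5 of 8 tested members and lower in 1, with a median of 0.69, which was 0.06 without the filter on low counts. CXCL1 had 29.2, 31.6 and 29.5 CPM in CT and 38.6, 66.2 and 81.9 CPM in MC26 (log2 fold change 1.05 ± 0.20, adjusted p = 0.00227). CXCL2 had 6.95, 6.29 and 5.75 CPM in CT and 8.93, 10.7 and 9.46 CPM in MC26 (log2 fold change 0.61 ± 0.11, adjusted p = 0.00156). CXCL3 had 1.43, 1 and 1.37 CPM in CT and 9.95, 11.8 and 7.67 CPM in MC26 (log2 fold change 2.89 ± 0.17, adjusted p = 1.02e-06). In these 3 ligands of the receptor CXCR2 the MC26 libraries lay above those of CT, and for CXCL1 replicate 1 was the nearest to CT. CCL20, a ligand for CCR6, had 7.83, 9.61 and 7.15 CPM in CT and 16.8, 26 and 23.4 CPM in MC26 (log2 fold change 1.45 ± 0.22, adjusted p = 0.000504). CXCL8, the interleukin 8 gene, had 3.93, 4.67 and 3.88 CPM in CT and 5.05, 7.4 and 8.45 CPM in MC26 (log2 fold change 0.77 ± 0.17, adjusted p = 0.00502). Neither overlapped between the lines. CXCL16, a membrane-anchored chemokine, was the member that fell, with 15.3, 12.5 and 14.4 CPM in CT and 3.83, 4.76 and 6.47 CPM in MC26 (log2 fold change -1.49 ± 0.17, adjusted p = 7.92e-05).

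CXCL1, CXCL2 and CXCL3 lie in the same cluster on chromosome 4, and the stretches before their starts are shown because each holds the same kappaB sequence, a run of 10 letters that NF-kB binds. It was searched on both strands of the 250 bases before the start and stood in 43 of 27305 promoters (0.157%), in 3 of 6 tested chemokines found in the table and in 4 of 18 genes of the NF-kB list (NFKB1, REL, NFKBIA and NFKBIZ). All 3 of these chemokines and 2 of the 3 without the sequence were called higher, against 1 of the 4 NF-kB genes with it and 8 of the 14 without it. The capitals spell it out in chr4:73869259-73869378 (plus strand), chr4:74099209-74099328 (minus strand) and chr4:74038704-74038823 (minus strand), all on GRCh38.p14.
CXCL1: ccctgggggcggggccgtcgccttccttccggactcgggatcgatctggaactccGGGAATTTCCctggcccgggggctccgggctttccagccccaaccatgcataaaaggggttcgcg
CXCL2: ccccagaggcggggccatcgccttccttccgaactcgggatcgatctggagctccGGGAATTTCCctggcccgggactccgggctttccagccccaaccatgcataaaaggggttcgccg
CXCL3: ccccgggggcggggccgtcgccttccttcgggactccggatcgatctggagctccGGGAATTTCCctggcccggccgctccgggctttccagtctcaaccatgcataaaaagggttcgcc
The match is a description of these letters, and binding was not measured.

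In the list of NF-kB subunits and feedback inhibitors 10 of 21 members were higher and 4 lower, with a median of 0.26. TNFAIP3, the deubiquitinase A20 that shuts the pathway off, had 11.6, 11.1 and 11 CPM in CT and 34.1, 43 and 38.5 CPM in MC26 (log2 fold change 1.78 ± 0.11, adjusted p = 1e-06). NFKBIZ, a nuclear regulator, had 6.84, 7.82 and 7.5 CPM in CT and 12.5, 18.4 and 18.8 CPM in MC26 (log2 fold change 1.17 ± 0.16, adjusted p = 0.000237). RELB, a subunit of the alternative pathway, had 10.3, 7.73 and 11.3 CPM in CT and 20.2, 20.7 and 21 CPM in MC26 (log2 fold change 1.06 ± 0.12, adjusted p = 5.85e-05). The lines did not overlap for any of the 3. In the other direction, TNFAIP2, another TNF-induced gene, had 123, 109.5 and 126 CPM in CT and 25.1, 39.6 and 37.8 CPM in MC26 (log2 fold change -1.81 ± 0.17, adjusted p = 1.95e-05). BIRC3, an inhibitor of apoptosis, had 98.2, 118 and 95.5 CPM in CT and 41.8, 71.9 and 69.2 CPM in MC26 (log2 fold change -0.77 ± 0.23, adjusted p = 0.023). For BIRC3 the call was lost without CT replicate 2 or MC26 replicate 1 (adjusted p from 0.0738 to 0.0743).

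Interferon-stimulated genes were higher in 20 of 49 tested members (40.8%) and lower in 5, with a median of 0.28. Of the 47 that reached the filter level in every CT library, 18 were higher and 5 lower. Only 3 of the 20 were changed 2-fold or more, and these were of low level. SAMD9L, a restriction factor, had 0.843, 0.874 and 0.903 CPM in CT and 2.31, 2.72 and 2.05 CPM in MC26 (log2 fold change 1.43 ± 0.17, adjusted p = 0.000103). OASL, an antiviral protein, had 0.815, 0.743 and 0.781 CPM in CT and 1.84, 2.27 and 1.6 CPM in MC26 (log2 fold change 1.27 ± 0.19, adjusted p = 0.000374). OAS2, a sensor of double-stranded RNA, had 0.186, 0.0874 and 0.293 CPM in CT and 0.398, 0.366 and 0.706 CPM in MC26 (log2 fold change 1.20 ± 0.38, adjusted p = 0.0285), and the call was lost without CT replicate 1 or 2 or MC26 replicate 3 (adjusted p from 0.0564 to 0.131). Its relative OAS1 went the other way. OAS1 had 12.6, 7.99 and 10.4 CPM in CT and 3.46, 3.19 and 4.07 CPM in MC26 (log2 fold change -1.54 ± 0.18, adjusted p = 8.12e-05). IRF9, the DNA-binding part of the interferon-activated complex, had 5.45, 4.59 and 4.55 CPM in CT and 8.65, 9.47 and 7.65 CPM in MC26 (log2 fold change 0.81 ± 0.13, adjusted p = 0.000674). Of 22 genes of MHC class I presentation 8 were higher and 1 lower, none by 2-fold. TAP2, a peptide transporter, had 97.9, 82 and 96.4 CPM in CT and 172, 142 and 144 CPM in MC26 (log2 fold change 0.72 ± 0.10, adjusted p = 0.00019).

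Keratins went in both directions, 5 higher and 6 lower of 19 tested. KRT14, a keratin of basal cells, had 58.3, 42.2 and 61.7 CPM in CT and 1521, 766 and 1004 CPM in MC26 (log2 fold change 4.34 ± 0.25, adjusted p = 8.75e-07), a fitted 20.2-fold difference. Its partner KRT5 had 7299, 5774 and 6684 CPM in CT and 6534, 5564 and 6694 CPM in MC26 (adjusted p = 0.585), so that only one of the pair was called. The KRT5 libraries of the lines overlapped. KRT6A, a keratin of activated and wounded epithelium, had 2099, 1715 and 2031 CPM in CT and 7631, 5962 and 5047 CPM in MC26 (log2 fold change 1.67 ± 0.14, adjusted p = 6.76e-06). KRT6B had 5.75, 4.59 and 6.43 CPM in CT and 38.4, 36.4 and 27.3 CPM in MC26 (log2 fold change 2.58 ± 0.16, adjusted p = 1.26e-06). These are near-identical copies, and the division of reads between them is uncertain. On the luminal side KRT8 had 392, 331 and 392 CPM in CT and 192, 209.9 and 205 CPM in MC26 (log2 fold change -0.88 ± 0.08, adjusted p = 1.32e-05). KRT18, its partner, had 558, 492 and 550.5 CPM in CT and 436, 420.5 and 451 CPM in MC26 (log2 fold change -0.29 ± 0.07, adjusted p = 0.00527). Both were lower in every MC26 library. KRT15, a keratin of stem and progenitor cells in some epithelia, had 158, 114 and 148 CPM in CT and 6.22, 6.62 and 12 CPM in MC26 (log2 fold change -4.08 ± 0.31, adjusted p = 4.43e-06). KRT80 had 49.5, 49.3 and 56.8 CPM in CT and 4.38, 5.23 and 6.52 CPM in MC26 (log2 fold change -3.27 ± 0.17, adjusted p = 3.98e-07). In KRT15 and KRT80 the MC26 libraries were far below CT and replicate 3 was the nearest to it.

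**Figure D2:**
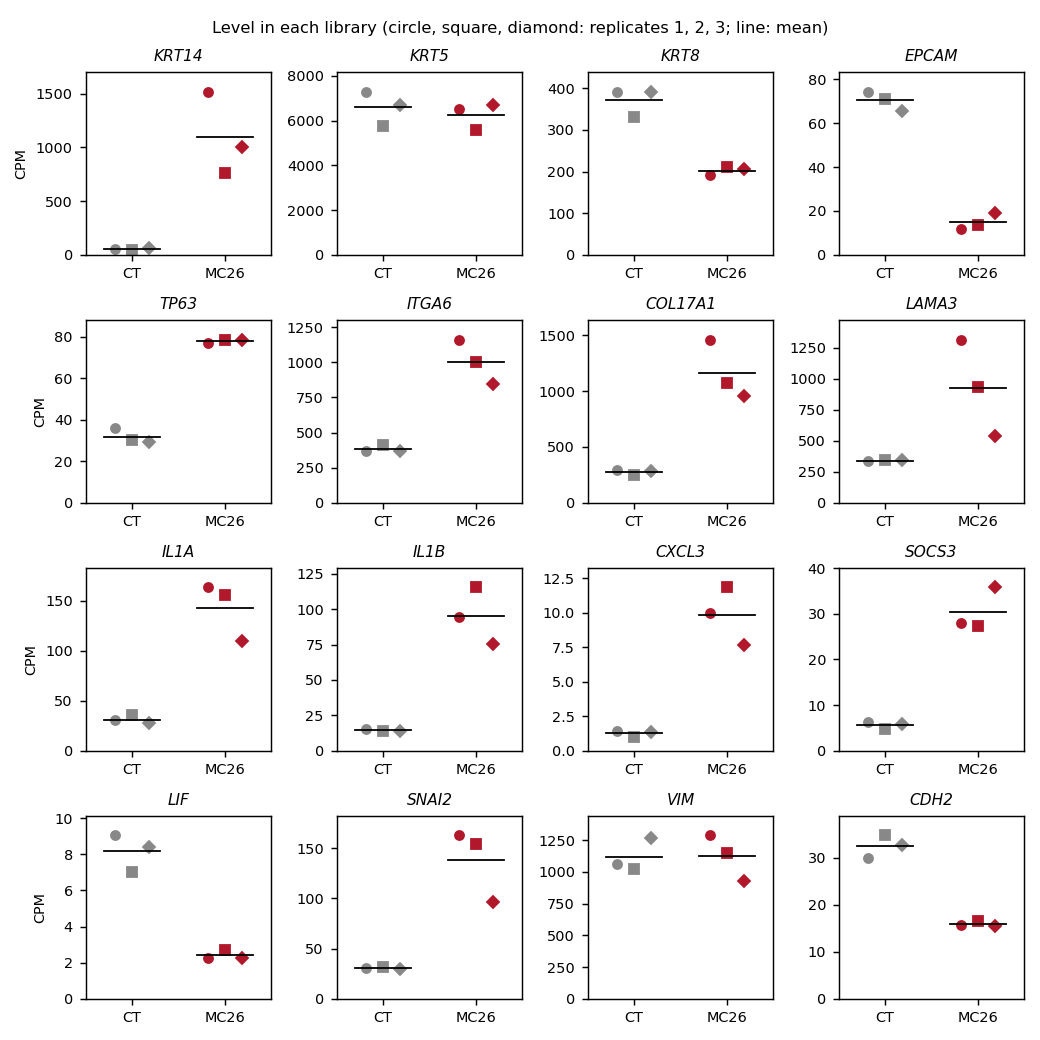
Level of 16 genes in each CT (grey) and MC26 (red) library, in TMM-scaled CPM on linear axes that start at 0; symbols mark the replicate and the line the mean of 3. KRT14 and TP63 were high in every MC26 library while KRT5 overlapped between the lines, and LAMA3 ranged from 535 to 1315 CPM among the MC26 libraries.

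Transcription factors of the mammary lineages were called in 19 of 23 tested cases, 8 higher and 11 lower. TP63, the regulator of basal epithelium, had 36, 30.5 and 29.3 CPM in CT and 76.9, 78.7 and 78.6 CPM in MC26 (log2 fold change 1.29 ± 0.08, adjusted p = 1.54e-06), with hardly any spread within MC26. KLF5, a factor of proliferating epithelium, rose to 192, 207 and 208 CPM from 141, 132 and 136 CPM (log2 fold change 0.57 ± 0.07, adjusted p = 7.53e-05). TBX3, a T-box factor of the breast, had 11.5, 11 and 12.3 CPM in CT and 24.8, 22 and 17.6 CPM in MC26 (log2 fold change 0.88 ± 0.12, adjusted p = 0.000197). All 3 were higher in every MC26 library. Among the factors of differentiated or luminal epithelium EHF had 42.7, 48 and 39.8 CPM in CT and 0.92, 2.01 and 7.25 CPM in MC26 (log2 fold change -3.66 ± 0.56, adjusted p = 0.000489). GRHL3 had 8.67, 6.25 and 7.87 CPM in CT and 0.696, 0.68 and 1.67 CPM in MC26 (log2 fold change -2.90 ± 0.38, adjusted p = 0.000188). TFAP2C had 24.1, 21.4 and 22.2 CPM in CT and 11.1, 11.3 and 13.9 CPM in MC26 (log2 fold change -0.90 ± 0.12, adjusted p = 0.00023). In EHF and GRHL3 MC26 replicate 3 was the nearest to CT. GATA3, the luminal regulator, was -0.45 ± 0.10 on the log2 scale (adjusted p = 0.00663), and SOX9, a factor of luminal progenitors, -1.20 ± 0.14 (adjusted p = 6.43e-05). FOXA1 was not called, and ESR1, the estrogen receptor, was called higher at a trace level, with 0.129, 0.0874 and 0.0732 CPM in CT and 0.224, 0.235 and 0.165 CPM in MC26 (adjusted p = 0.044), and the call was lost without CT replicate 2 or 3, MC26 replicate 1 or 2 or M1B26 replicate 1, 2 or 3 (adjusted p from 0.057 to 0.202). EPCAM, a surface molecule of luminal cells, had 74.4, 71.2 and 65.6 CPM in CT and 11.7, 13.6 and 19.1 CPM in MC26 (log2 fold change -2.25 ± 0.17, adjusted p = 3.65e-06).

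Parts of the hemidesmosome, the structure that fastens basal cells to laminin 332, were higher. ITGA6, the alpha subunit of its integrin, had 371, 411 and 372 CPM in CT and 1163, 1002 and 847 CPM in MC26 (log2 fold change 1.39 ± 0.10, adjusted p = 3.46e-06). ITGB4, the beta subunit, had 792, 609 and 807 CPM in CT and 1532, 1244 and 1249 CPM in MC26 (log2 fold change 0.86 ± 0.12, adjusted p = 0.000271). COL17A1, its transmembrane collagen, had 294, 252 and 281 CPM in CT and 1461, 1073 and 954 CPM in MC26 (log2 fold change 2.08 ± 0.14, adjusted p = 2.1e-06). In each case the lowest MC26 library was above the highest CT library. Genes of the inner plaque were less clear. PLEC, encoding plectin, had 1393, 1153 and 1807 CPM in CT and 2661, 2113 and 1635 CPM in MC26 (log2 fold change 0.56 ± 0.19, adjusted p = 0.0392), and the call was lost without CT replicate 1 or 2, MC26 replicate 1 or 2 or M1B26 replicate 2 (adjusted p from 0.0563 to 0.16). DST, encoding the plakin BPAG1, had 294, 350.4 and 289 CPM in CT and 334, 317 and 333 CPM in MC26 (adjusted p = 0.526).

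LAMA3 and LAMB3, which encode chains of laminin 332, were higher in all MC26 libraries than in CT. LAMA3 had 333, 344 and 342 CPM in CT and 1315, 933 and 535 CPM in MC26 (log2 fold change 1.45 ± 0.23, adjusted p = 0.000728). LAMB3 had 601, 529 and 640.3 CPM in CT and 1595, 1204 and 726 CPM in MC26 (log2 fold change 0.99 ± 0.21, adjusted p = 0.00362). In both genes MC26 replicate 1 was more than 2-fold above replicate 3. By contrast, LAMB2, a chain of other laminins, had 185, 152 and 190.4 CPM in CT and 87.8, 93.8 and 92.9 CPM in MC26 (log2 fold change -0.94 ± 0.09, adjusted p = 1.31e-05). LAMA5, the alpha chain of laminins 511 and 521, had 633, 504 and 742 CPM in CT and 369, 416 and 544 CPM in MC26 (log2 fold change -0.50 ± 0.16, adjusted p = 0.0303), and the call was lost without CT replicate 1 or 3 or MC26 replicate 1 or 2 (adjusted p from 0.0769 to 0.119). Over the family of 11 tested laminin genes 7 were higher and 3 lower, with a median of 0.54. Of the 10 that reached the filter level in every CT library, 6 were higher and 3 lower. Among 15 integrins 6 were higher and 4 lower. ITGB6, a subunit of the receptor that activates TGF-beta, had 24.9, 25.2 and 24.3 CPM in CT and 88.3, 71.3 and 49.4 CPM in MC26 (log2 fold change 1.49 ± 0.16, adjusted p = 5.01e-05). ITGA3, an alpha subunit that binds laminin 332, had 579.9, 485 and 625 CPM in CT and 982, 924 and 963 CPM in MC26 (log2 fold change 0.76 ± 0.09, adjusted p = 8.66e-05). ITGB8, another subunit of TGF-beta activating receptors, had 49.6, 58.2 and 47.2 CPM in CT and 18, 27.6 and 38.2 CPM in MC26 (log2 fold change -0.88 ± 0.22, adjusted p = 0.00994). The lines did not overlap for these 3 integrins.

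Of 21 claudins and other tight junction proteins 12 (57.1%) were lower and 2 higher, with a median of -0.39. TJP3, a scaffold protein of the junction, had 14, 9.91 and 15 CPM in CT and 0.0497, 0.0523 and 0.353 CPM in MC26 (log2 fold change -6.36 ± 0.41, adjusted p = 1.54e-06), in MC26 from a few counts per library. CLDN1, a sealing claudin, had 18.2, 16.6 and 12.9 CPM in CT and 1.54, 1.91 and 3.15 CPM in MC26 (log2 fold change -2.85 ± 0.29, adjusted p = 3.25e-05). OCLN, encoding occludin, had 5.09, 4.46 and 3.81 CPM in CT and 0.497, 0.445 and 0.353 CPM in MC26 (log2 fold change -3.36 ± 0.28, adjusted p = 6.76e-06). None of them overlapped between the lines. CLDN7 had 24.2, 18.6 and 19.8 CPM in CT and 6.12, 5.26 and 6.57 CPM in MC26 (log2 fold change -1.81 ± 0.23, adjusted p = 0.00014). CXADR, an adhesion molecule of tight junctions, had 13.1, 13.2 and 10.4 CPM in CT and 2.73, 2.77 and 4.17 CPM in MC26 (log2 fold change -1.91 ± 0.28, adjusted p = 0.000396). CLDN12, among the higher members, had a log2 fold change of 0.36 ± 0.12, and the call was lost without CT replicate 1 or 3 or MC26 replicate 1 or 2 (adjusted p from 0.0647 to 0.12). Among 12 cadherins 5 were lower and 1 higher. CDH1, E-cadherin, had 86.2, 75.3 and 67.6 CPM in CT and 44.8, 37.5 and 39.9 CPM in MC26 (log2 fold change -0.91 ± 0.15, adjusted p = 0.00097). CDH2, N-cadherin, had 29.9, 34.7 and 32.6 CPM in CT and 15.7, 16.5 and 15.4 CPM in MC26 (log2 fold change -1.03 ± 0.12, adjusted p = 7.92e-05). CDH3, the P-cadherin of basal cells, was the higher one with 202, 166 and 191 CPM in CT and 258, 241 and 247 CPM in MC26 (log2 fold change 0.41 ± 0.08, adjusted p = 0.00219). Thus the epithelial and the mesenchymal cadherin were both lower in every MC26 library.

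Genes used to read epithelial-mesenchymal transition (EMT) did not move one way. Of 24 members 4 were higher and 12 lower, with a median of -0.25. SNAI2, a transcription factor that represses E-cadherin and is also a factor of basal mammary cells, had 30.2, 31.3 and 29.9 CPM in CT and 163, 154 and 96.3 CPM in MC26 (log2 fold change 2.18 ± 0.18, adjusted p = 6.76e-06). FAP, a membrane protease, had 6.69, 8.08 and 7.52 CPM in CT and 35.7, 29.6 and 21.6 CPM in MC26 (log2 fold change 1.97 ± 0.16, adjusted p = 7.36e-06). ZEB1, another repressor of E-cadherin, had 6.25, 8.21 and 7.84 CPM in CT and 11, 10.6 and 8.75 CPM in MC26 (log2 fold change 0.45 ± 0.15, adjusted p = 0.0327), and the call was lost without CT replicate 1 or MC26 replicate 1 or 2 (adjusted p from 0.0929 to 0.138). Only SNAI2 and FAP of these 3 were far from CT. Against these, S100A4 had 119, 116 and 111 CPM in CT and 7.76, 9.83 and 22.7 CPM in MC26 (log2 fold change -3.10 ± 0.30, adjusted p = 2.34e-05). LOX, a collagen cross-linking enzyme, had 44.1, 46.3 and 40.7 CPM in CT and 8.7, 14.6 and 25.4 CPM in MC26 (log2 fold change -1.43 ± 0.29, adjusted p = 0.00314). SPARC, a matrix protein, had 113, 111 and 112 CPM in CT and 54.9, 59 and 59.2 CPM in MC26 (log2 fold change -0.96 ± 0.06, adjusted p = 1.23e-06). All 3 were lower in every MC26 library. VIM, the filament protein vimentin, did not pass the test with 1061, 1021 and 1264 CPM in CT and 1287, 1150.0 and 931 CPM in MC26 (adjusted p = 0.958). FN1, encoding fibronectin, had 40.5, 60.8 and 61.5 CPM in CT and 102, 60.0 and 42.7 CPM in MC26 (adjusted p = 0.389), so that MC26 replicate 1 lay above and the other MC26 libraries within the range of CT. The members that rose were SNAI2, ZEB1, TGFBI and FAP, and those that fell were mostly genes of matrix and adhesion but also the repressor ZEB2.

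Matrix genes were changed in both directions, with 9 higher and 15 lower of 40 glycoproteins and proteoglycans and 6 higher and 8 lower of 23 collagens. LTBP1, which stores latent TGF-beta in the matrix, had 74, 79.7 and 74.5 CPM in CT and 389, 382 and 407 CPM in MC26 (log2 fold change 2.37 ± 0.08, adjusted p = 2.82e-08), with the MC26 libraries close together. THBS1, thrombospondin 1, had 302, 317 and 356 CPM in CT and 965, 594 and 651 CPM in MC26 (log2 fold change 1.18 ± 0.18, adjusted p = 0.000538). Both were higher in every MC26 library. FBLN1, fibulin 1, had 288, 253 and 301 CPM in CT and 70.2, 69.1 and 90.9 CPM in MC26 (log2 fold change -1.87 ± 0.12, adjusted p = 1.57e-06). COL12A1, a collagen that coats fibrils, had 124, 149 and 136 CPM in CT and 24.4, 21.2 and 21.3 CPM in MC26 (log2 fold change -2.61 ± 0.20, adjusted p = 4.74e-06). FBLN1 and COL12A1 were lower in every one. Of the TGF-beta pathway list 8 of 17 were higher and 3 lower. In it SKIL, a feedback repressor, had 17.1, 19.6 and 17.9 CPM in CT and 52.9, 48.7 and 29.4 CPM in MC26 (log2 fold change 1.26 ± 0.18, adjusted p = 0.000353). TGFBI, a secreted matrix protein, had 2271, 2436 and 2786 CPM in CT and 7972, 6320.0 and 3552 CPM in MC26 (log2 fold change 1.25 ± 0.23, adjusted p = 0.00157). For both genes replicate 1 was the highest MC26 library and replicate 3 the lowest.

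In the EGF family 5 of 17 members were higher and 6 lower. EREG, the ligand epiregulin, had 20.7, 27.4 and 21.6 CPM in CT and 49.7, 50.4 and 43.6 CPM in MC26 (log2 fold change 1.06 ± 0.11, adjusted p = 3.39e-05). TGFA, encoding TGF-alpha, had 33.3, 36.3 and 33.6 CPM in CT and 77.8, 67.9 and 52.6 CPM in MC26 (log2 fold change 0.94 ± 0.12, adjusted p = 0.000183). HBEGF, a heparin-binding ligand, had 6.45, 5.59 and 5.54 CPM in CT and 9.1, 12.5 and 9.29 CPM in MC26 (log2 fold change 0.81 ± 0.23, adjusted p = 0.0178), and the call was lost without CT replicate 3 or MC26 replicate 2 (adjusted p from 0.0526 to 0.0725). All 3 ligands were higher in every MC26 library. Of the receptors, ERBB2 had 76.9, 66.7 and 80.9 CPM in CT and 46, 46.5 and 52.2 CPM in MC26 (log2 fold change -0.64 ± 0.08, adjusted p = 0.000167). ERBB3, which signals in pairs with ERBB2, had 13.7, 11.9 and 13.2 CPM in CT and 3.26, 3.98 and 5.37 CPM in MC26 (log2 fold change -1.62 ± 0.21, adjusted p = 0.000164). EGFR, the receptor of all 3 ligands above, had 405, 429 and 422 CPM in CT and 459, 431 and 405 CPM in MC26 (adjusted p = 0.727). It overlapped between the lines, unlike ERBB2 and ERBB3. LRIG1, which marks these receptors for degradation, had 24, 22.6 and 24.3 CPM in CT and 3.78, 3.45 and 5.98 CPM in MC26 (log2 fold change -2.42 ± 0.24, adjusted p = 2.34e-05). Feedback genes of the MAPK pathway were mixed, 9 higher and 8 lower of 26, and the 17 calls fell to 11 without CT replicate 1 and to 10 without MC26 replicate 1. SPRY4, a sprouty inhibitor, had 71.6, 64.3 and 73.2 CPM in CT and 182, 150.3 and 128 CPM in MC26 (log2 fold change 1.14 ± 0.12, adjusted p = 3.07e-05). DUSP6, a phosphatase of ERK, had 92.2, 81.2 and 80.8 CPM in CT and 62.2, 64.8 and 78.7 CPM in MC26 (log2 fold change -0.31 ± 0.10, adjusted p = 0.0253), and the call was lost without CT replicate 1 or MC26 replicate 1 or 2 (adjusted p from 0.0989 to 0.116).

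Genes of DNA replication were higher by small amounts. Of 43 S phase genes 29 (67.4%) were higher and none was lower (1 at an unadjusted p under 0.05, none with DESeq2), with a median of 0.34, where 1 of them, E2F8, was changed 2-fold or more. With plain total counts 25 were called and the median was 0.27. The helicase subunits MCM2 to MCM7 had log2 fold changes of 0.40 ± 0.08, 0.27 ± 0.06, 0.24 ± 0.06, 0.55 ± 0.10, 0.28 ± 0.06 and 0.40 ± 0.08. All 6 were called higher. For MCM4 the call was lost without CT replicate 1 (adjusted p = 0.0551) and also ended with plain total counts. CDC6, which loads them on DNA, had 66.2, 71.1 and 68.4 CPM in CT and 115, 106 and 98.8 CPM in MC26 (log2 fold change 0.64 ± 0.07, adjusted p = 4.78e-05). CDC45, part of the active helicase, had 39.6, 39.4 and 44.5 CPM in CT and 73.8, 65.9 and 65.7 CPM in MC26 (log2 fold change 0.73 ± 0.08, adjusted p = 3.5e-05). RRM2, a subunit of the enzyme that makes deoxynucleotides, had 249, 289 and 274 CPM in CT and 497, 414 and 361 CPM in MC26 (log2 fold change 0.65 ± 0.10, adjusted p = 0.000722). The lines did not overlap for any of these. E2F8, a repressor of the E2F family, had 7.26, 8.91 and 8.02 CPM in CT and 19.6, 18.1 and 15.1 CPM in MC26 (log2 fold change 1.14 ± 0.14, adjusted p = 0.000148). The count of higher S phase genes was 27, 28 and 30 without MC26 replicate 1, 2 and 3, and 0 were lower in each case.

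A shared letter pattern before these genes is shown for MCM6, PCNA and GINS2, subunits of the replication machinery. The E2F-type sequences TTTGGCGC, TTTCGCGC and TTTCCCGC, searched on both strands of the 250 bases before the start, stood in 13 of 33 tested S phase genes found in the promoter table, in 2 of 45 G2/M genes and in 649 of 27305 promoters (2.38%). Of the 13 S phase genes with such a sequence 9 were called higher, and of the 20 without it 12 were. The capitals mark the matches in chr2:135876466-135876585, chr20:5126623-5126742 and chr16:85688955-85689074, all read on the minus strand of GRCh38.p14, and in MCM6 they join 2 matches that overlap on opposite strands.
MCM6: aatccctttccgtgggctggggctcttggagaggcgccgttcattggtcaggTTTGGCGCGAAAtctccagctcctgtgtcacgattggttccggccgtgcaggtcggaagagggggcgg
PCNA: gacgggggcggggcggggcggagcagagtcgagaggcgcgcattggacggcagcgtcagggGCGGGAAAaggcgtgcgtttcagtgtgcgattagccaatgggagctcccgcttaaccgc
GINS2: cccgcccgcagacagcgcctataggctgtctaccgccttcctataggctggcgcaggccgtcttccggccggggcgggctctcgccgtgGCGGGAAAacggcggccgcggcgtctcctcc
PCNA, the sliding clamp, had 176, 190.3 and 174 CPM in CT and 228, 214 and 215 CPM in MC26 (log2 fold change 0.28 ± 0.07, adjusted p = 0.00666). MCM6 had 130.1, 146 and 137 CPM in CT and 172, 168 and 161 CPM in MC26 (log2 fold change 0.28 ± 0.06, adjusted p = 0.00541). GINS2 had 35.5, 35.9 and 35.3 CPM in CT and 55.5, 51.6 and 50.6 CPM in MC26 (log2 fold change 0.56 ± 0.06, adjusted p = 6.35e-05).

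Of 54 genes of the G2 and M phases 11 (20.4%) were higher, near the 18.8% of all genes, and 3 (5.56%) lower, under the 19.9% of all genes. In all 25.9% were called, under the 38.7% of all genes. The median was 0.09, and the 14 calls were 9 without CT replicate 1. AURKB, a mitotic kinase, had 50.1, 44 and 54.9 CPM in CT and 87.4, 67.1 and 66.4 CPM in MC26 (log2 fold change 0.56 ± 0.11, adjusted p = 0.0026). CENPF, a kinetochore protein, had 361, 492 and 391 CPM in CT and 334, 333 and 294 CPM in MC26 (log2 fold change -0.37 ± 0.11, adjusted p = 0.0195), and the call was lost without CT replicate 2 or MC26 replicate 3 (adjusted p from 0.0514 to 0.058). By library the median difference of this list from CT was 0.29, 0.06 and -0.09 in MC26 replicates 1, 2 and 3, against 0.41, 0.31 and 0.28 for the S phase list. The difference between the lists was not tested. Among G1 regulators 12 of 24 were higher and 3 lower. CCND2, a D-type cyclin, had 4.77, 5.15 and 3.7 CPM in CT and 15.8, 13.9 and 13.7 CPM in MC26 (log2 fold change 1.70 ± 0.12, adjusted p = 2.27e-06). CCNE1, the cyclin of S phase entry, had 16.6, 16 and 16.6 CPM in CT and 31.8, 28.6 and 27.1 CPM in MC26 (log2 fold change 0.83 ± 0.09, adjusted p = 4.71e-05). CDKN1C, the inhibitor p57, had 27.9, 22.3 and 32.3 CPM in CT and 2.26, 6.43 and 6.47 CPM in MC26 (log2 fold change -2.45 ± 0.41, adjusted p = 0.000887). In these 3 genes the lines did not overlap. MYC, which is amplified in MCF10A, had 500.5, 391 and 478 CPM in CT and 382, 358 and 513 CPM in MC26 (adjusted p = 0.459).

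**Figure D3:**
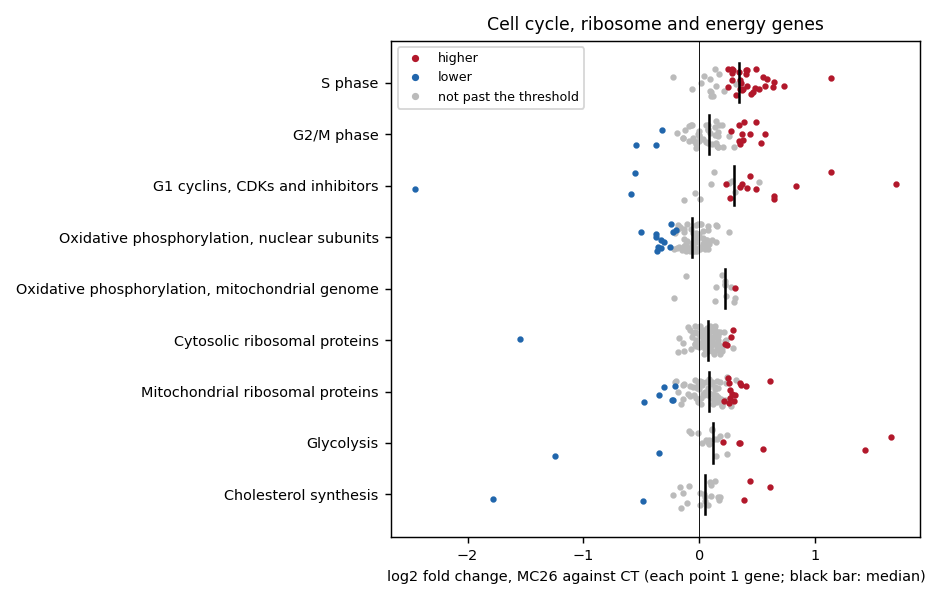
Log2 fold change of MC26 against CT for each member (point) of 9 lists of cell cycle, ribosome and energy genes; red and blue points were called higher and lower, and the black bar is the list's median. The S phase points lie almost all to the right of 0, with a median of 0.34, while ribosomal protein and nuclear-encoded oxidative phosphorylation genes gather around 0. The 13 oxidative phosphorylation genes of the mitochondrial genome had a median of 0.22. By library their median difference from CT was 0.08, 0.50 and -0.04 in MC26 replicates 1, 2 and 3.

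Of 83 cytosolic ribosomal protein genes 4 were higher and 1 lower (median 0.07, and -0.005 with plain total counts). The lower one was RPL39L, a copy with a restricted expression in tissues, and its call was lost with DESeq2 (adjusted p = 0.0574). The 5 calls ran from 3 without MC26 replicate 2 to 8 without replicate 3 and were 10 with offsets for length and GC content. Of 78 nuclear-encoded oxidative phosphorylation subunits none was higher, also at an unadjusted p under 0.05 and with DESeq2, and 12 were lower, none by 2-fold (median -0.07). That count was 7, 8 and 19 without MC26 replicate 1, 2 and 3, 25 were called with plain total counts and 26 with offsets for length and GC content, so the number of lower subunits depended on a library and on the scaling. SDHA, a subunit of complex II, had 216, 195 and 217 CPM in CT and 133, 143 and 167 CPM in MC26 (log2 fold change -0.51 ± 0.08, adjusted p = 0.000881). ATP5F1B, of the ATP synthase, had 1344, 1247 and 1317 CPM in CT and 963, 954 and 1094 CPM in MC26 (log2 fold change -0.38 ± 0.07, adjusted p = 0.00187). Glycolytic genes were called in 8 of 24 cases, and in 5 without CT replicate 1 or without MC26 replicate 2. LDHA, lactate dehydrogenase A, had 2409, 2443 and 2296 CPM in CT and 2168, 2385 and 2553 CPM in MC26 (adjusted p = 0.944). PFKFB3, which makes an activator of glycolysis, had 46.4, 41.7 and 46.6 CPM in CT and 146, 119.6 and 98.2 CPM in MC26 (log2 fold change 1.43 ± 0.12, adjusted p = 1.09e-05).

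Other metabolic families fell in part. Of 29 genes of the ATF4 stress response, which supplies amino acids, 14 (48.3%) were lower and 5 higher, with a median of -0.29, and ATF4 itself had 388, 370.4 and 400.0 CPM in CT and 332, 372 and 401 CPM in MC26 (adjusted p = 0.508). PHGDH, the first enzyme of serine synthesis, had 110.2, 105 and 120.2 CPM in CT and 34.4, 42.7 and 47.7 CPM in MC26 (log2 fold change -1.43 ± 0.12, adjusted p = 6.49e-06), and PSAT1 and PSPH, the next ones, had log2 fold changes of -0.52 ± 0.10 and -0.48 ± 0.09 (adjusted p = 0.00202 and 0.00122). ASNS, asparagine synthetase, had 34.1, 35.1 and 30.7 CPM in CT and 19.7, 23.4 and 23.3 CPM in MC26 (log2 fold change -0.58 ± 0.11, adjusted p = 0.0018). PHGDH and ASNS were lower in every MC26 library. An exception was SLC7A11, the cystine transporter, with 57.7, 73.7 and 60.3 CPM in CT and 194, 175 and 116 CPM in MC26 (log2 fold change 1.34 ± 0.18, adjusted p = 0.000247). Fatty acid genes were lower in 8 of 21 cases and higher in none, also at an unadjusted p under 0.05 and with DESeq2. ACSS2, an acetyl-CoA synthetase, had 139, 120.5 and 119.7 CPM in CT and 55.7, 73.8 and 85.2 CPM in MC26 (log2 fold change -0.82 ± 0.15, adjusted p = 0.00137). FASN, the fatty acid synthase, had 2252, 1624 and 2252 CPM in CT and 1844, 2012 and 2255 CPM in MC26 (adjusted p = 0.982).

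Aldehyde dehydrogenases, aldo-keto reductases and cytochromes P450 were lower in 20 of 45 cases (44.4%) and higher in 6, with a median of -0.39. ALDH3A1, which oxidises aromatic and fatty aldehydes, had 105, 89.4 and 114 CPM in CT and 4.97, 13.1 and 14.5 CPM in MC26 (log2 fold change -3.25 ± 0.34, adjusted p = 3.96e-05). CYP1B1, an enzyme of estrogen and xenobiotic oxidation, had 213, 239.6 and 234 CPM in CT and 39.6, 79.7 and 80.7 CPM in MC26 (log2 fold change -1.78 ± 0.33, adjusted p = 0.00175). Replicate 1 was the lowest MC26 library for both. ALDH1A3, an enzyme of retinoic acid synthesis, had 63.4, 62.5 and 68.4 CPM in CT and 53, 46.4 and 23.5 CPM in MC26 (adjusted p = 0.076), with only replicate 3 of MC26 far below CT. AKR1C1, whose reads may be shared with its close paralogs, had 106, 106 and 106 CPM in CT and 247, 239 and 91.1 CPM in MC26 (log2 fold change 0.86 ± 0.31, adjusted p = 0.049). For AKR1C1 the call was lost without CT replicate 1, 2 or 3, MC26 replicate 1 or 2 or M1B26 replicate 2 (adjusted p from 0.0691 to 0.17). FTH1, the ferritin heavy chain, had 6232, 5028 and 6667 CPM in CT and 1431, 2659 and 3115 CPM in MC26 (log2 fold change -1.31 ± 0.24, adjusted p = 0.00153). Of the hypoxia list 7 of 23 were higher and 7 lower. Here EPAS1, the factor HIF2-alpha, had 201, 177 and 202 CPM in CT and 464, 472 and 504 CPM in MC26 (log2 fold change 1.31 ± 0.07, adjusted p = 7.13e-07). CA12, a carbonic anhydrase, had 73.4, 71.6 and 74 CPM in CT and 242, 230.3 and 199 CPM in MC26 (log2 fold change 1.61 ± 0.08, adjusted p = 2.91e-07). BNIP3L, a mitophagy receptor, had 33.1, 36.6 and 30.7 CPM in CT and 11.7, 14.8 and 18.9 CPM in MC26 (log2 fold change -1.14 ± 0.15, adjusted p = 0.000158).

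A family of low expression with one direction was that of the clustered protocadherins, adhesion molecules whose isoforms label single neurons. Of 53 such genes 24 passed the filter, and of these 12 were higher and none was lower, also at an unadjusted p under 0.05 and with DESeq2. Some passed only through the MC26 or M1B26 libraries, whereas 14 reached the filter level in all 3 CT libraries, and of those 8 were higher. PCDHB14 had 1.4, 1.79 and 1.56 CPM in CT and 3.01, 3.32 and 4.42 CPM in MC26 (log2 fold change 1.20 ± 0.18, adjusted p = 0.000419). PCDHB2 had 1.51, 1.49 and 1.88 CPM in CT and 2.56, 3.35 and 3.83 CPM in MC26 (log2 fold change 0.98 ± 0.18, adjusted p = 0.0017). PCDHB16 had 0.314, 0.48 and 0.549 CPM in CT and 1.92, 1.86 and 2.38 CPM in MC26 (log2 fold change 2.20 ± 0.23, adjusted p = 4.39e-05). The 3 beta genes were higher in every MC26 library. PCDHGC3, a gamma gene, had 38.4, 32.2 and 37.9 CPM in CT and 32.1, 36.2 and 35.5 CPM in MC26 (adjusted p = 0.55). Members of the alpha and gamma clusters share their last exons, and members of the beta cluster are similar in sequence, so the division of reads within the family is uncertain.

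Apart from these families, the genes with the largest changes at a level of at least 5 CPM came from many families. LCP1, the actin bundler L-plastin, otherwise found in leukocytes, had 15.4, 18.3 and 15.2 CPM in CT and 334, 347 and 322 CPM in MC26 (log2 fold change 4.37 ± 0.09, adjusted p = 6.34e-10). HSD17B2, which inactivates estradiol, had 4.03, 4.5 and 4.6 CPM in CT and 124, 119 and 106 CPM in MC26 (log2 fold change 4.74 ± 0.12, adjusted p = 2.93e-09). CHRNA9, a nicotinic acetylcholine receptor subunit, had 2.74, 3.23 and 3.56 CPM in CT and 68.1, 90.6 and 71.7 CPM in MC26 (log2 fold change 4.59 ± 0.14, adjusted p = 8.32e-09). All 3 were even among the MC26 libraries. In the lower direction VIPR1, the receptor of vasoactive intestinal peptide, had 9.66, 9.22 and 12.5 CPM in CT and 0.0995, 0.0785 and 0.0706 CPM in MC26 (log2 fold change -6.95 ± 0.30, adjusted p = 1.49e-07), in MC26 from a few counts per library. ENTPD2, an ectonucleotidase, had 57.2, 42.9 and 56.8 CPM in CT and 1.39, 1.52 and 2.75 CPM in MC26 (log2 fold change -4.79 ± 0.30, adjusted p = 1.26e-06). ETNK2, an ethanolamine kinase, had 82.2, 69.2 and 79.95 CPM in CT and 1.42, 3.4 and 4.54 CPM in MC26 (log2 fold change -4.62 ± 0.30, adjusted p = 1.54e-06). Of the leukocyte markers PTPRC was at or near 0 in the libraries in which LCP1 was high, CD14 was not called and CD68 was called higher.

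The farthest pair of MC26 libraries differed more than any pair of CT libraries. MC26 had 10496 genes at 5 CPM or more on average, of which 127 (1.21%) were at least 2-fold apart between replicates 1 and 3, 69 higher in replicate 3 and 58 lower. The other pairs of MC26 had 26 and 33 such genes, and the 3 pairs of CT libraries 13, 0 and 26 of 10637. With 1 library on each side there is no test of these differences. Replicate 2 lay between the others in 126 of the 127 genes. Choosing genes by the gap between replicates 1 and 3 favours this place, so no order of the libraries is read from it. Of the 127 genes 97 were called in MC26 against CT, where 38.7% of all genes tested, at any level, were called. In 104 replicate 3 was the nearer of the pair to the CT mean. The same held over all called genes: the median absolute difference from the CT mean was 0.65, 0.55 and 0.47 on the log2 scale in replicates 1, 2 and 3, and replicate 3 was nearer to CT than replicate 1 in 76.2% of them.

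Among genes with at least 5 CPM, 3 of 8 laminins, 2 of 15 TGF-beta pathway genes and 2 of 13 BMP target genes were at least 2-fold higher in replicate 1 than in replicate 3, and none of these lists had a member 2-fold higher in replicate 3. WNT7B, a WNT ligand, had 14.7, 4.37 and 1.22 CPM in MC26 against 1.1, 0.743 and 1.28 in CT, and TAGLN, a contractile protein, had 14.7, 3.61 and 2.63 CPM against 3.12, 2.75 and 2.79, so that replicate 3 of MC26 was close to CT for both. CD24, a surface glycoprotein, had 78.2, 44.7 and 17.6 CPM against 14.5, 16.4 and 18.7, and the call was lost without MC26 replicate 1 (adjusted p = 0.0524). UCA1, a long non-coding RNA, had 19.2, 11 and 1.81 CPM and was at or near 0 in CT. In the opposite direction PPL, the cornified envelope protein periplakin, had 1.44, 4.42 and 14.9 CPM against 129, 108 and 121 in CT, and SERPINA3 had 3.65, 8.13 and 29.8 against 71.7, 63.5 and 61, where the call was lost without MC26 replicate 2 (adjusted p = 0.0542). In these 2 genes all MC26 libraries were below CT, replicate 1 the furthest. DCN, decorin, had 5.45, 15.9 and 47.3 CPM against 28.6, 29.9 and 28.6, CFB, complement factor B, had 5.7, 18.3 and 35.6 against 11.1, 9.44 and 10.6, and S100A8, a calprotectin subunit, had 46.2, 55.6 and 223 against 46.2, 36.4 and 41.8. For DCN and CFB the MC26 libraries lay on both sides of CT. DCN, CFB, S100A8 and TAGLN were not called in MC26 against CT (adjusted p = 0.645, 0.152, 0.131 and 0.202). U2AF1L5, SAA1 with SAA2, and SERPINB3 with SERPINB4 also stood among the genes most different between the replicates, and each has a near-identical copy, so their levels are uncertain.

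**Figure D4:**
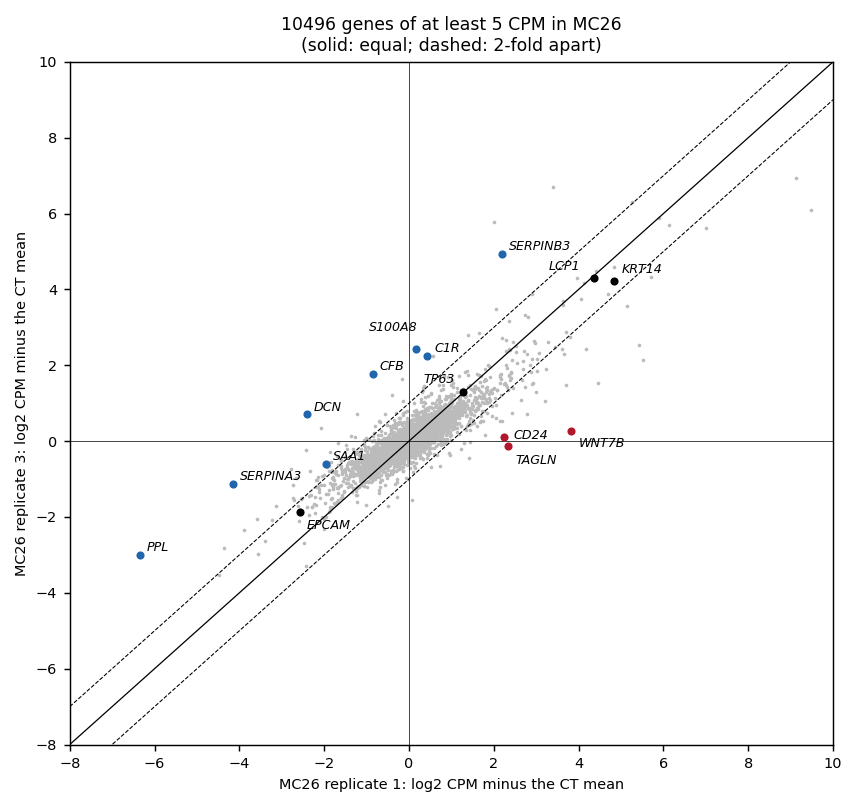
Difference from the CT mean in log2 CPM for 10496 genes (grey points) in MC26 replicate 1 (horizontal axis) and replicate 3 (vertical axis), with lines of equality (solid) and of a 2-fold gap (dashed). Labelled red genes are higher in replicate 1, blue genes higher in replicate 3 and black genes close to equal; 127 genes are at least 2-fold apart by CPM.

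Of the 55 lists, that of acute-phase and complement genes had the most members at least 2-fold apart between MC26 replicates 1 and 3. Of its 16 members with at least 5 CPM, 8 were at least 2-fold higher in replicate 3 than in replicate 1 and none was lower, and the list's median difference from CT was -0.72, -0.08 and 0.26 in replicates 1, 2 and 3. C1S, a protease of the first complement component, had 5.45, 5.07 and 4.45 CPM in CT and 13, 25.6 and 34.4 CPM in MC26 (log2 fold change 2.29 ± 0.29, adjusted p = 0.000133). CFI, a complement inhibitor, had 2.53, 3.1 and 2.33 CPM in CT and 8.33, 15.1 and 19.2 CPM in MC26 (log2 fold change 2.46 ± 0.28, adjusted p = 6.19e-05). Both were above CT in every MC26 library. C3, the central component, had 949.9, 842 and 896 CPM in CT and 513, 883 and 1184 CPM in MC26 (adjusted p = 0.856), below CT in replicate 1 and above it in replicate 3. SERPINA1, the antitrypsin gene, had 49, 44.9 and 47.2 CPM in CT and 122, 149 and 169.5 CPM in MC26 (log2 fold change 1.64 ± 0.11, adjusted p = 1.95e-06). SOD2, a mitochondrial enzyme induced by inflammation, showed the same order at 184, 366 and 565 CPM against 254, 252 and 224 in CT. In all, 8 of 21 acute-phase and complement genes were called higher and 5 lower, and without MC26 replicate 1 these counts were 9 and 3.

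**Figure D5:**
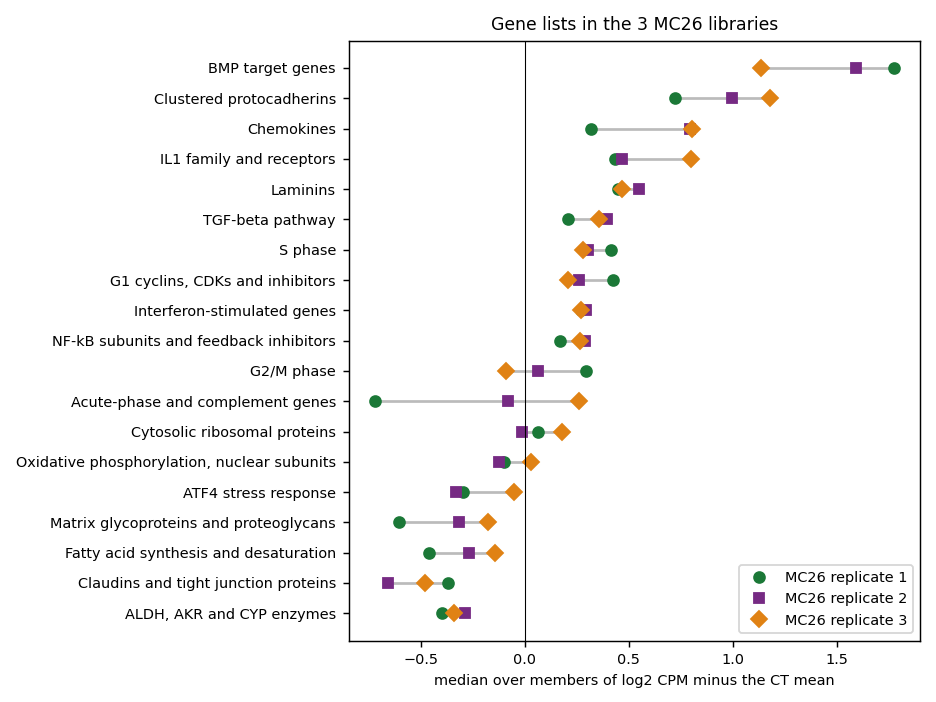
Median over the members of 19 gene lists of the difference in log2 CPM from the CT mean, for MC26 replicate 1 (circle), 2 (square) and 3 (diamond). BMP target genes lay between 1.14 and 1.78 in all 3 libraries, whereas acute-phase and complement genes ran from -0.72 in replicate 1 to 0.26 in replicate 3.

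The calls of the whole comparison rested unequally on the libraries. Of the 6081 called genes, 1677, 1361 and 636 were no longer called without MC26 replicate 1, 2 and 3, and 1626, 740 and 993 without CT replicate 1, 2 and 3. A total of 3970 were called in each of the 9 fits that left out 1 library. Of the 307 genes named by the rule, 175 differed between M1B26 and MC26. Over all genes that share was 39.5%, and nothing is read from this, since many of the named genes were taken for their values in the same MC26 libraries. ID1, a BMP target, had a log2 difference of -0.04 ± 0.13 between M1B26 and MC26. The BMP targets ID2 and ID3 were lower in M1B26, with differences of -2.06 ± 0.16 and -0.88 ± 0.18 (adjusted p = 8.09e-06 and 0.00291). The inhibitory genes SMAD6, SMAD7 and NOG had differences of -2.70 ± 0.28, -1.46 ± 0.16 and -1.68 ± 0.24, that is a lower level in M1B26 (adjusted p = 5.13e-05, 6.92e-05 and 0.000425).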

How the data were processed

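RNA was purified by poly-A selection and sequenced as paired ends on an Illumina NovaSeq. The authors aligned reads with STAR 2.7.3a to GRCh38, annotated with GENCODE v33, and name Salmon 1.1.0. The deposited table holds whole-number counts per gene symbol in 9 libraries. The counting step, its use of strand and its handling of shared reads are not given in the sources used here. Cytokine doses differ between the labels and the methods and are not given here. Total counts per library are 21425118 to 80076597 in CT, 38585395 to 42869494 in MC26 and 43642934 to 55048760 in M1B26.

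Counts were tested in R 4.3.3 with edgeR 4.0.16, with filterByExpr at a minimum count of 10, TMM factors and a quasi-likelihood fit over the 9 libraries, which share 1 estimate of the spread (biological coefficient of variation 10.4%). Genes at an adjusted p under 0.05 were called. The fit was tested on simulated data. Alternatives were DESeq2 1.42.0, other scaling factors, other filters, a replicate block, length and GC offsets, and leaving out each library. P-values measure the spread among 3 cultures of 1 line each.

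The comparison and the gene lists were chosen with earlier results of these data known, so no count over a list is independent evidence. Cell cycle lists came from Seurat 5.3.0. Genes were named by a rule: 26 markers whatever their value, up to 3 called genes in each direction per list and the 10 largest changes each way, all with a mean of at least 5 CPM, and the 10 largest differences each way between MC26 replicates 1 and 3. Named outside this rule, after their values were seen, were ASNS, ATF4, BAMBI, C3, CASP1, CDC6, CLDN7, CXCL2, DLX1, DLX2, DST, FASN, GINS2, GRHL3, ID1, IL18, IL18R1, IL1RN, IRAK2, ITGA3, KLF5, MCM2, MCM3, MCM4, MCM5, MCM6, MCM7, NOG, OAS2, OASL, OCLN, PCDHB14, PCDHB16, PCDHB2, PCDHGC3, PCNA, PLEC, PSAT1, PSPH, RPL39L, SAMD9L, SMAD7, SOD2, SOX9 and SPARC. Some genes that the rule takes are not reported here. Levels in CPM depend on gene length and were not compared between genes, and sums over markers follow their most abundant members. Motifs were searched as plain letters in RefSeq promoters of GRCh38.p14, and 14046 of the genes tested had a length and GC content.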

Additional observations from a re-analysis of the deposited data

Results flagged for a closer look

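Among the genes named whatever their value, 12 differed between the lines M1B26 and MC26, each of which was also compared with CT. The contrasts share the CT libraries, so only the direct edgeR test between M1B26 and MC26 is given, with log2 differences of M1B26 over MC26. KRT14 was lower in M1B26 (-1.0 ± 0.22, adjusted p = 0.0049), and so were CDH2 (-0.68 ± 0.12, adjusted p = 0.00157), ZEB1 (-0.79 ± 0.15, adjusted p = 0.00216), CD44 (-0.46 ± 0.07, adjusted p = 0.000496) and GATA3 (-0.73 ± 0.11, adjusted p = 0.000483). GATA3 is among the luminal markers, which thus did not move one way. Of the other luminal markers, KRT8 (0.61 ± 0.08, adjusted p = 0.000203), KRT18 (0.32 ± 0.07, adjusted p = 0.00312) and EPCAM (2.28 ± 0.17, adjusted p = 5.22e-06) were higher in M1B26 than in MC26. The inflammatory genes IL1A (0.83 ± 0.14, adjusted p = 0.00115), IL1B (1.41 ± 0.16, adjusted p = 0.000101) and CXCL8 (1.79 ± 0.16, adjusted p = 2.02e-05) were higher too, and ESR1 (0.98 ± 0.31, adjusted p = 0.0282) remained at a trace level in both lines. M1B26 came from sorted cells and soft-agar clones, so that the sorting, the cloning and the starting cells cannot be told apart.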

How the results depend on the processing

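The number of genes changed in MC26 against CT was 6081 and lay between 4524 and 6127 when 1 of the 9 libraries was left out. It was 6099 with DESeq2, 6081 with the RLE factors of DESeq2 in edgeR, 6067 with plain total counts, 6391 without a filter, 5252 at a mean of at least 50 counts, 5373 with the 6 CT and MC26 libraries alone, and 7386 with offsets for length and GC content. At an adjusted p under 0.01 it was 3698, which follows from the stricter threshold. The number changed at least 2-fold, 1696, ran from 1490 to 1950 with 1 library left out and was 980 at a mean of at least 50 counts, where fewer genes were tested. Genes at least 2-fold apart between replicates, counted over the fewer genes with a mean of at least 20 instead of 5 CPM, were 3, 0 and 8 in the CT pairs 1 and 2, 1 and 3, and 2 and 3 (before 13, 0 and 26). In MC26 they were 7, 63 and 15 in the same order of pairs (before 26, 127 and 33). The number of rule-named genes that differed between M1B26 and MC26, 175, was 148 to 196 with 1 library left out.

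Replicate numbers are shared by the lines, but deviations of same-numbered CT and MC26 libraries from their group means were hardly correlated over genes (r = -0.11, 0.09 and 0.02), so the numbers were not taken as pairs. With a replicate block 5879 genes were called and 1677 of them were changed 2-fold or more, and with the block and the length and GC offsets together 7066 and 1676.

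Of 358 named genes that were called, 304 stayed past the threshold in every alternative, 54 lost it in at least 1 and 0 changed sign. Plain total counts ended 16 of these calls, among them AKR1C1, CLDN12, ESR1, MCM4, PLEC and ZEB1. DESeq2 ended 7, among them AKR1C1, ESR1, IL1RN, OAS2, PLEC and RPL39L. The fits without MC26 replicate 1, 2 and 3 ended 30, 31 and 10. Of the 55 lists, none had a median that moved by 0.1 or more with DESeq2, RLE factors or total counts, 3 did with the length and GC offsets, 6 at a mean of at least 50 counts, 14 without a filter, and 11 and 10 without MC26 replicate 1 and 3. Without a filter the median went from -0.33 to -0.89 for desmosome genes, and without MC26 replicate 1 from -0.06 to -0.35 for collagens. Depth limits the genes at a few counts in some libraries, such as ESR1, whose call was lost in 12 of 19 alternatives.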

Other observations

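Several families not described above changed in both directions. Of 19 desmosome and cornified envelope genes 4 were higher and 8 lower. PPL, periplakin, had 129, 108 and 121 CPM in CT and 1.44, 4.42 and 14.9 CPM in MC26 (log2 fold change -4.10 ± 0.55, adjusted p = 0.000223), and DSC2, a desmosomal cadherin, had 39.1, 41.6 and 37.3 CPM in CT and 18.7, 18.4 and 17.3 CPM in MC26 (log2 fold change -1.11 ± 0.10, adjusted p = 1.49e-05). Of 30 ligands and receptors of the TNF superfamily 10 were higher and 4 lower. TNFRSF12A, the receptor of TWEAK, had 131, 117 and 148 CPM in CT and 341, 249 and 212 CPM in MC26 (log2 fold change 1.02 ± 0.18, adjusted p = 0.00111), and CD70, a costimulatory ligand, had 47.6, 32.7 and 47.5 CPM in CT and 11.8, 17.6 and 23.7 CPM in MC26 (log2 fold change -1.28 ± 0.23, adjusted p = 0.00136). TNFRSF6B, a decoy receptor that overlaps another gene, so that its reads are uncertain, had 28.4, 17.7 and 35.1 CPM in CT and 182, 223 and 252 CPM in MC26 (log2 fold change 2.99 ± 0.20, adjusted p = 2.14e-06). Of 38 matrix metalloproteinases, ADAMs and TIMPs 8 were higher and 13 lower. MMP14, a membrane-bound collagenase, had 114, 100.1 and 115 CPM in CT and 322, 273 and 243 CPM in MC26 (log2 fold change 1.35 ± 0.10, adjusted p = 3.36e-06), and ADAM12 had 59.4, 66.3 and 64 CPM in CT and 24, 27.9 and 33.5 CPM in MC26 (log2 fold change -1.15 ± 0.15, adjusted p = 0.000202).

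Of 49 semaphorins, plexins, ephrins, netrins and slits 13 were higher and 17 lower. PLXNA2, a semaphorin receptor, had 98.4, 97.9 and 114 CPM in CT and 416, 351 and 271 CPM in MC26 (log2 fold change 1.74 ± 0.14, adjusted p = 5.52e-06), and SEMA3C, a secreted semaphorin, had 68.9, 79.2 and 64.1 CPM in CT and 22.1, 24.8 and 23.8 CPM in MC26 (log2 fold change -1.58 ± 0.10, adjusted p = 1.21e-06). Of 30 potassium channel genes 8 were higher and 10 lower, with KCNQ3 at 5.29, 5.94 and 5.82 CPM in CT and 28.1, 26.8 and 21.8 CPM in MC26 (log2 fold change 2.17 ± 0.11, adjusted p = 3.69e-07) and KCNIP3 at 45.7, 34 and 43.3 CPM in CT and 7.66, 7.01 and 12.2 CPM in MC26 (log2 fold change -2.20 ± 0.19, adjusted p = 1.04e-05). In the IGF pathway 2 of 12 were higher and 5 lower. IGFBP7, a secreted binding protein, had 28.2, 25.2 and 31.1 CPM in CT and 82.5, 78.5 and 77.5 CPM in MC26 (log2 fold change 1.49 ± 0.10, adjusted p = 1.54e-06), and IRS1, the adaptor of the insulin and IGF receptors, had 14.2, 13.4 and 18.1 CPM in CT and 5.62, 5.57 and 7.81 CPM in MC26 (log2 fold change -1.27 ± 0.17, adjusted p = 0.000187). Among YAP/TAZ targets NT5E, the ectonucleotidase CD73, had 74.3, 88.3 and 88.1 CPM in CT and 411, 338 and 226 CPM in MC26 (log2 fold change 1.96 ± 0.17, adjusted p = 1.19e-05), while the receptor kinase AXL had 126, 125 and 148 CPM in CT and 56, 51.9 and 49.9 CPM in MC26 (log2 fold change -1.34 ± 0.10, adjusted p = 3.1e-06). Of 413 zinc finger genes 29 were higher and 67 lower, 23.2% in all against 38.7% of all genes, and 160 were called with offsets for length and GC content. Of 766 tested lncRNA genes 102 were higher and 168 lower, 35.2% in all, which is near the 38.7% of all genes.

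By position, the median log2 fold change of 50 neighbouring tested genes ran from -0.27 (chr6:26158122-29738528, GRCh38) to 0.28 (chr12:6867119-11176016). The window chr5:140245035-141969741, in which the clustered protocadherins lie, had 0.26, with 21 genes higher and 3 lower. These windows were chosen after their values were seen, and DNA copy number was not measured.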
